A study of Mus musculus with 6 samples.

Results

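The genes described here encode the enzymes that write, erase and read out chemical marks on DNA and histones, with the motor proteins that move nucleosomes, in naive CD8 T cells of the mouse. They were taken by gene symbol from the deposited table: the Kmt, Setd, Nsd, Suv39h, Ehmt, Ezh and Prmt methyltransferases, the Kdm demethylases, the Kat acetyltransferases, the Hdac and Sirt deacetylases, the Dnmt and Tet enzymes of DNA methylation, and the Smarc, Chd and Arid families of chromatin remodelling proteins. The symbols matched 110 of the 11162 listed genes. No expression value entered the choice, and the 110 genes were sorted by symbol into 17 enzyme classes.

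RNA had been sequenced from CD8 T cells of the spleen of Nur77-GFP mice (Tg(Nr4a1-EGFP)GY139Gsat), in which green fluorescent protein is driven by the regulatory sequences of Nr4a1, an immediate early gene of T-cell receptor signalling. Both groups carried the transgene and the OT-I T-cell receptor, a transgenic receptor of fixed specificity, and both had been sorted as CD44lo, CD62Lhi and Qa2hi, the surface features of mature naive cells. The 3 GFP-hi libraries came from the cells with high reporter fluorescence and the 3 GFP-lo libraries from those with low fluorescence. The labels give neither the age of the mice nor whether libraries of a group came from separate animals, so p-values measure the spread between these libraries, which may be technical.

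DNA methyltransferases place methyl groups on cytosine in CpG pairs, and TET dioxygenases oxidise them, which leads to their removal. Histone lysine methyltransferases mark promoters, gene bodies or silenced regions depending on the residue they modify, and demethylases reverse these marks. Acetyltransferases open chromatin and deacetylases close it, while remodellers of the SWI/SNF, ISWI and CHD families slide or evict nucleosomes at the cost of ATP. In T cells, DNMT3A and EZH2 are known for restraining genes of alternative fates as cells differentiate.

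Levels are in RPKM, a read count divided by transcript length and by the size of the library. Depths recovered from the size of the smallest steps in the table ran from 26170000 to 35940000 reads per library. Summed RPKM of the 9 CD8 T cell markers was 2400 to 2600 in GFP-hi and 2480 to 2670 in GFP-lo. Of 5 B cell markers, 3 were listed and summed to 12.6 to 14.2 RPKM in GFP-hi against 11.0 to 11.4 in GFP-lo, nearly all of it from Cd79b. The 1 myeloid marker that was listed stayed at or under 0.431 RPKM in every library, and the natural killer cell markers were not analysed here. Of 5 erythroid markers 1 was listed, at 0.047 to 1.94 RPKM in GFP-hi and 0.393 to 1.48 in GFP-lo. Of 4 thymocyte markers 2 were listed, and they summed to 1.47 to 2.09 RPKM in GFP-hi and 1.77 to 2.59 in GFP-lo. Of 4 CD4 T cell markers 1 was listed, Cd40lg, which fell in GFP-hi (14.2 to 22.7 against 35.4 to 46.8 RPKM). Handling genes are immediate early and heat-shock genes that can respond to cell isolation. Immediate early genes, like Nr4a1, can also respond to T-cell receptor signalling, and the design cannot tell these apart. The list summed to 3470, 7640 and 3580 RPKM in GFP-hi and 4470, 8560 and 4460 RPKM in GFP-lo, with replicate 2 the highest in each group. Of 19 handling genes tested, 5 had a positive and 14 a negative log2 difference (median -0.236), and none passed the test described below. Whether any of these levels has a part in the results below was not tested. In bulk samples, fewer cells of a type and less RNA per cell cannot be told apart.

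The chromatin enzymes as a set differed little between GFP-hi and GFP-lo cells. Of the 110, 103 passed the expression filter of a mean of at least 1 RPKM. The 7 below it were Arid3a, Hdac9, Nsd2, Setd1a, Setd1b, Suv39h2 and Smarca5-ps, a pseudogene copy whose reads may be shared with Smarca5. In limma on log2(RPKM + 1), with Benjamini-Hochberg adjustment over all 9351 genes tested, 2 of the 103 had an adjusted p under 0.05, or 1.94%, against 3.95% of all genes tested. Both, Dnmt3a and Ezh2, were higher in GFP-hi (1.94% against 2.46% of all genes), and 0 were lower. Of all 369 genes called, 230 were higher and 139 lower, a split that became 201 and 186 with the trimmed mean of M values and 236 and 251 with the length trend removed. Without adjustment, 13 of the 103 had a p under 0.05 (12.6%, 10 higher and 3 lower), against 20.2% of all genes.

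Fold changes are given as log2 differences, GFP-hi minus GFP-lo, on the log2(RPKM + 1) scale, which understates the change of weakly expressed genes. Across the 103 enzymes they ran from -0.21 to 0.46, with a median of -0.006 beside 0.018 for all genes. Of these enzymes 50 had a positive and 53 a negative value (40 and 63 with the trimmed mean of M values). The 95% interval of the difference lay within 0.5 on either side of 0 for 99 of the 103, the exceptions being Dnmt3a, Ezh2, Tet1 and Kdm6b. Most genes met this bound, 8502 of all 9351 tested, so it does not set the enzymes apart. All 3 libraries of one group lay above those of the other for 22 enzymes (16 higher and 6 lower in GFP-hi), which is 21.4% of them against 26.9% of all genes. Summed over all 110 genes, the level was 1270 to 1350 RPKM in GFP-hi and 1290 to 1340 RPKM in GFP-lo, so the total ranges overlapped.

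**Figure D1:**
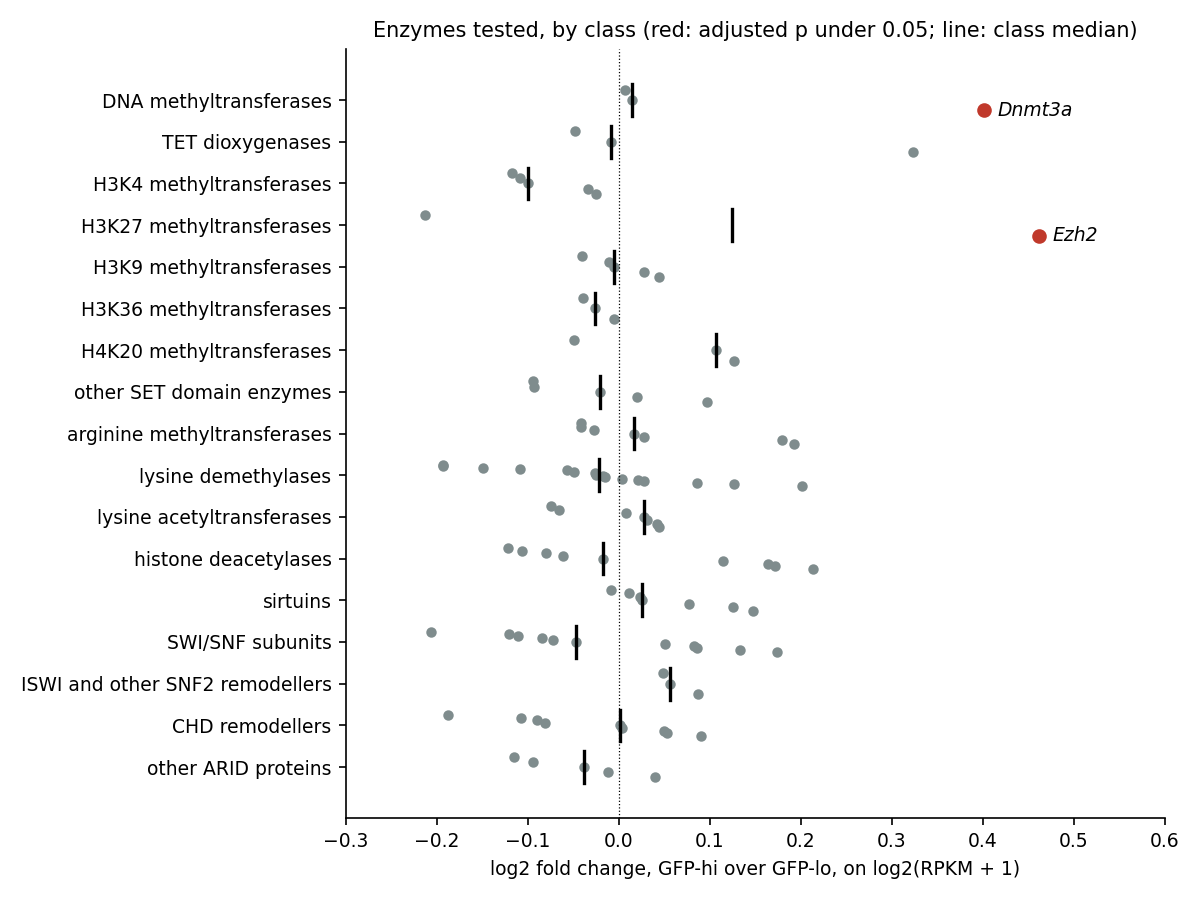
Log2 difference between GFP-hi and GFP-lo on the log2(RPKM + 1) scale for each of the 103 tested chromatin enzymes, in rows by enzyme class. Most points lie close to 0, and Ezh2 (0.46) and Dnmt3a (0.40), the 2 genes that passed the test, lie farthest to the right.

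Among the DNA methyltransferases, the de novo enzyme Dnmt3a rose in GFP-hi while the maintenance enzyme Dnmt1 and the second de novo enzyme Dnmt3b did not pass the test. Dnmt3a (Entrez 13435, GRCm38 chr12:3806007-3914443, plus strand) was at 7.60, 6.04 and 6.86 RPKM in the GFP-hi libraries and at 4.905, 4.725 and 5.12 RPKM in the GFP-lo libraries. All 3 GFP-hi libraries lay above all 3 GFP-lo libraries, with GFP-hi replicate 2 closest to them. Mean levels came to 6.83 ± 0.779 and 4.92 ± 0.198 RPKM (SD, n = 3 each), a difference of 39.0%. The log2 difference was 0.40 (SE 0.081, 95% interval 0.21 to 0.59, limma adjusted p = 0.036). An exon of the antisense transcript Dnmt3aos overlaps this gene, and unless counting used strand, reads of the overlap cannot be told apart. Leaving out GFP-hi replicate 1 or 3, or any one GFP-lo library, ended the call (limma adjusted p = 0.0912 to 0.134), as did scaling by the trimmed mean of M values (limma adjusted p = 0.0563).

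Dnmt1, which copies methylation to the new strand after replication, was the most abundant DNA methyltransferase and lay at 33.8, 24.5 and 32.9 RPKM in GFP-hi and 32.2, 28.5 and 29.4 RPKM in GFP-lo. GFP-hi replicate 2 was the lowest of all 6 and the groups overlapped. Its log2 difference was 0.007 (95% interval -0.26 to 0.28, limma adjusted p = 0.984). Dnmt3b lay at 2.78, 2.75 and 2.70 RPKM in GFP-hi and 2.70, 2.93 and 2.50 RPKM in GFP-lo, again overlapping. The ratio of Dnmt1 to Dnmt3a was 4.43 ± 0.368 in GFP-hi and 6.11 ± 0.417 in GFP-lo (exact permutation test, two-sided p = 0.1, the smallest that 3 against 3 libraries can give). This ratio was chosen after its values were seen. So was that of Dnmt3a to Dnmt3b, at 2.49 ± 0.271 in GFP-hi and 1.83 ± 0.218 in GFP-lo (exact permutation test, two-sided p = 0.1).

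Of the TET dioxygenases, none passed the test. Tet1 was the weakest and had the largest difference. Tet1 lay at 1.75, 1.75 and 1.44 RPKM in GFP-hi and 1.23, 1.03 and 1.08 RPKM in GFP-lo, so the groups did not overlap (log2 difference 0.32, SE 0.083, limma adjusted p = 0.077). Tet1 was named after its values were seen. Tet3, the most abundant of the family, was at 10.7, 8.97 and 9.16 RPKM against 9.68, 9.42 and 9.82 RPKM (log2 difference -0.009, 95% interval -0.17 to 0.16). Tet2 was at 4.29, 3.31 and 4.13 RPKM in GFP-hi and 4.08, 3.77 and 4.32 RPKM in GFP-lo (log2 difference -0.048, 95% interval -0.26 to 0.16). For both, the groups overlapped.

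The 2 catalytic subunits of Polycomb repressive complex 2, which methylates histone H3 at lysine 27, had differences of opposite sign. Ezh2, the subunit known to prevail in dividing cells, rose in GFP-hi, and Ezh1, the subunit known to prevail in resting cells, had lower values there but did not pass the test. Their promoter windows are shown with that of Dnmt3a because these are the 2 enzymes that rose and the paralog of one of them. Each runs 5′ to 3′ in the gene's own direction, from 250 bases before the annotated start through the first 20 bases of the transcript, taken from RefSeq on GRCm38.p6. Capitals mark a match to an E2F motif, the site of a family of factors known to drive genes of S phase. Ezh2 lies at chr6:47595011-47595280 (minus strand), Ezh1 at chr11:101226444-101226713 (minus strand) and the first of the 3 Dnmt3a start sites at chr12:3806730-3806999 (plus strand).
Ezh2: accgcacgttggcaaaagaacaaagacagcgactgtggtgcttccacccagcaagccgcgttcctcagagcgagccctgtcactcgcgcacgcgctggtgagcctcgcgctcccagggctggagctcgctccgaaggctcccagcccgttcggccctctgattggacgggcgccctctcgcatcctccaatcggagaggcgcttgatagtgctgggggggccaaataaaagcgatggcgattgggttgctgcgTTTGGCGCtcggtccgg
Ezh1: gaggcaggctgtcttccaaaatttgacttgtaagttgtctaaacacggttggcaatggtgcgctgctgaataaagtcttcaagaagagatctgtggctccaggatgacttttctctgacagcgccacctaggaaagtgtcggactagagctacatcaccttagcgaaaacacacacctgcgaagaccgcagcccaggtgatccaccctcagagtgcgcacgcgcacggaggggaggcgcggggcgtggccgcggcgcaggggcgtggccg
Dnmt3a: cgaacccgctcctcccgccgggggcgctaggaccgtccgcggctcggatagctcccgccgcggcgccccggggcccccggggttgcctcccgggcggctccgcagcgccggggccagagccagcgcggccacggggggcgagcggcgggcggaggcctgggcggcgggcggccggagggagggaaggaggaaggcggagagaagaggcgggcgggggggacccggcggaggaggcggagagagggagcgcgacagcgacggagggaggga

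The search used the octamers TTTCCCGC, TTTCGCGC, TTTGCCGC and TTTGGCGC on both strands of the full 300-base windows. A match lay in 8 of 117 windows of the 86 enzymes that had one (6.84%), against 744 of 32851 windows in the whole table (2.26%). The enzymes with a match were Arid1a, Dnmt1, Ezh2, Kat2a, Kmt5c, Sirt4, Smarcd1 and Suv39h1, of which Ezh2 alone passed the expression test. The windows of the enzymes also had more CpG pairs (median 23 against 7) and a higher GC content (median 62.0% against 52.7%), so the shares come from sequences of unlike composition. In Ezh2 the match, TTTGGCGC, begins at base 4 of the transcript, counting the start as 1. No match was found in the shown windows of Ezh1 and Dnmt3a, which says only that these letters are not there. The CHR hexamer TTTGAA, another cell-cycle motif, lay in 11.1% of the enzymes' windows and 17.9% of all windows.

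Ezh2 (Entrez 14056, GRCm38 chr6:47530139-47595341, minus strand) lay at 4.56, 4.11 and 4.60 RPKM in GFP-hi and at 2.87, 2.72 and 3.23 RPKM in GFP-lo. The lowest GFP-hi library was above the highest GFP-lo library. Mean levels came to 4.43 ± 0.271 and 2.94 ± 0.263 RPKM (SD, n = 3 each), a difference of 50.5%, and the log2 difference was 0.46 (SE 0.075, 95% interval 0.29 to 0.64, limma adjusted p = 0.0153). The antisense transcript Gm26625 overlaps an exon, and the limit given for Dnmt3a holds for reads of this overlap too. Leaving out GFP-hi replicate 1 or 3, or GFP-lo replicate 1 or 2, ended the call (limma adjusted p = 0.0559 to 0.0716).

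Ezh1 (Entrez 14055, GRCm38 chr11:101191115-101226463, minus strand) lay at 14.5, 13.2 and 15.6 RPKM in GFP-hi and 17.5, 16.6 and 16.5 RPKM in GFP-lo. Every GFP-hi library lay below every GFP-lo library, yet the difference of -0.21 (SE 0.069, 95% interval -0.37 to -0.055) had a limma adjusted p of 0.135. Ezh1 was the more abundant paralog in all 6 libraries. Per library, the ratio of Ezh1 to Ezh2 was 3.19, 3.21 and 3.39 in GFP-hi and 6.10, 6.12 and 5.10 in GFP-lo. The means were 3.26 ± 0.112 and 5.77 ± 0.581 (exact permutation test, two-sided p = 0.1, the smallest this design allows). The ratio was chosen after its values were seen. With both genes already separate in opposite directions, no other p was possible, so this test adds nothing to them.

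The cell cycle markers moved in the same direction as Ezh2. Of the 25 on the list, 18 were tested, all 18 had a positive log2 difference (median 0.57) and 12 passed the test, each higher in GFP-hi. The list held genes that earlier results of these data had shown to be higher, so its direction is no independent evidence. Its summed level was 301, 271 and 303 RPKM in GFP-hi and 220, 205 and 207 RPKM in GFP-lo, and Mki67, the proliferation antigen Ki-67, was at 1.91 ± 0.528 against 0.218 ± 0.129 RPKM (SD, n = 3 each). The part of these levels in the Ezh2 result was not tested.

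**Figure D2:**
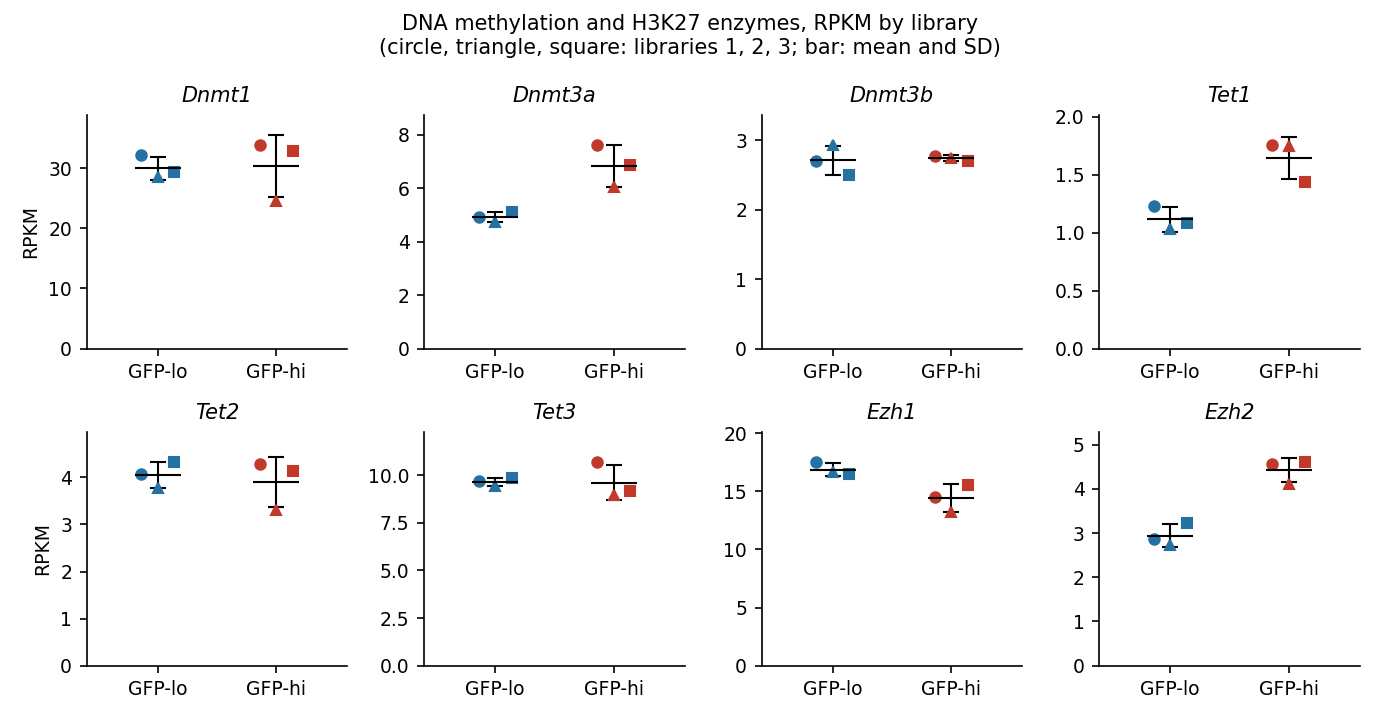
RPKM of the DNA methyltransferases, the TET dioxygenases and both H3K27 methyltransferases in each library, with 1 panel per gene, a linear axis from 0, and bars at the mean with the SD of 3 libraries. Dnmt3a (6.04 to 7.60 against 4.725 to 5.12 RPKM) and Ezh2 (4.11 to 4.60 against 2.72 to 3.23 RPKM) have separate groups, as do Tet1 and Ezh1, which did not pass the test, while Dnmt1, Dnmt3b, Tet2 and Tet3 overlap.

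Methyltransferases for the other histone lysines gave no gene that passed the test. All 5 tested genes classed by symbol as H3K4 methyltransferases had a negative difference, with a class median of -0.1. Such enzymes mark promoters and enhancers, but whether each gene of the class has this activity was not examined. Kmt2b turned positive with the length trend removed (0.012) and Kmt2c without GFP-hi replicate 2 (0.14), both named after their values were seen. The most abundant was Kmt2e at 27.9, 29.3 and 27.2 RPKM in GFP-hi against 28.9, 31.7 and 30.1 RPKM in GFP-lo (log2 difference -0.1, limma adjusted p = 0.384), with overlapping groups. Kmt2a, the MLL1 enzyme, was at 10.4 ± 0.321 against 11.3 ± 0.856 RPKM (-0.12, limma adjusted p = 0.374). The H3K9 enzymes, which mark silenced chromatin, had log2 differences of -0.041 to 0.044, with Setdb1 the most abundant at 16.5 ± 1.32 against 16.6 ± 0.574 RPKM, Ehmt2 (G9a) at 11.0 ± 0.837 against 11.0 ± 0.795 RPKM, and Suv39h1 at 7.99 ± 0.284 against 8.25 ± 0.255 RPKM.

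The 3 tested H3K36 methyltransferases, which mark transcribed gene bodies, had log2 differences of -0.039 to -0.006. Nsd3 was at 12.8, 10.4 and 12.1 RPKM against 11.2, 12.1 and 12.7 RPKM and Setd2, the trimethylating enzyme, at 7.96 ± 1.24 against 7.94 ± 0.533 RPKM. The H4K20 enzymes Kmt5a, which adds the first methyl group, and Kmt5c, which adds further ones, had differences of 0.11 (limma adjusted p = 0.368) and 0.13 (limma adjusted p = 0.454). The remaining enzyme of this class, Kmt5b, had a negative difference of -0.049 (limma adjusted p = 0.68) and was named after its values were seen. For Kmt5a the groups did not overlap, at 8.62, 8.74 and 9.43 RPKM against 7.95, 8.16 and 8.53 RPKM. Setd6 was the most abundant of the other SET domain enzymes, and its groups were also separate, in the other direction, at 19.3, 20.3 and 20.004 RPKM in GFP-hi against 21.8, 21.0 and 21.0 RPKM in GFP-lo (-0.094, limma adjusted p = 0.358).

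Arginine methyltransferases gave 2 of 7 with an unadjusted p under 0.05 (28.6% against 20.2% of all genes), Prmt5 and Prmt6, neither of which passed the adjusted threshold. Prmt5, the main enzyme of symmetric dimethylation and the most abundant of the class, was at 28.5, 28.6 and 26.6 RPKM in GFP-hi and 24.6, 25.1 and 23.1 RPKM in GFP-lo. The groups did not overlap (log2 difference 0.19, 95% interval 0.059 to 0.33, limma adjusted p = 0.117). Prmt6 was at 4.84 ± 0.207 against 4.16 ± 0.264 RPKM (0.18, limma adjusted p = 0.186) and was named after its values were seen. Prmt1, the main asymmetric enzyme, was at 17.3, 10.9 and 16.9 RPKM in GFP-hi and 15.02, 15.3 and 14.9 RPKM in GFP-lo. GFP-hi replicate 2 stood far below the other 5 libraries here, and the log2 difference of -0.028 became 0.17 without it.

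Of the 16 lysine demethylases, none passed the test, with 6 positive and 10 negative values and a class median of -0.022. Without GFP-hi replicate 2 the positive values numbered 11. Kdm5b, which removes methyl groups from H3K4, was at 15.7, 14.2 and 15.6 RPKM in GFP-hi and 12.97, 13.4 and 12.8 RPKM in GFP-lo, with no overlap (log2 difference 0.20, 95% interval 0.067 to 0.34, limma adjusted p = 0.108). It passed in 2 of 19 alternatives, with the length trend removed (limma adjusted p = 0.0346) and with array quality weights (limma adjusted p = 0.00981). In the other 17 it did not, among them the length trend removed with GFP-hi replicate 2 also left out (limma adjusted p = 0.0778). The most abundant demethylase, Kdm5c, was at 25.6 ± 3.78 against 25.9 ± 0.96 RPKM.

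Among demethylases of H3K27, Kdm6a, an X-linked enzyme, was at 16.3 ± 0.581 against 16.6 ± 0.295 RPKM (log2 difference -0.026, 95% interval -0.15 to 0.095). Kdm6b, known to be induced by stimulation, was at 1.74, 2.93 and 1.53 RPKM in GFP-hi and 2.27, 2.97 and 2.13 RPKM in GFP-lo. The log2 difference was -0.193 (95% interval -0.581 to 0.195, limma adjusted p = 0.582). It was -0.386 to -0.068 with single libraries left out, -0.386 being without GFP-hi replicate 2, and -0.283 without both libraries numbered 2. Its high libraries were both replicates numbered 2, which also had the highest handling gene levels. The part of those levels in the Kdm6b values was not tested. Kdm1a, the flavin-dependent demethylase LSD1, was at 21.5 ± 2.2 against 19.6 ± 0.791 RPKM (0.13, limma adjusted p = 0.412). Its groups were barely separate, the lowest GFP-hi library being at 20.089 and the highest GFP-lo library at 20.066 RPKM. GFP-hi replicate 2 was the highest at 24.051 RPKM, and the difference was 0.047 without it. Kdm7a, named after its values were seen, was at 13.7 ± 0.855 against 15.8 ± 1.54 RPKM (-0.19, limma adjusted p = 0.232), and its groups overlapped.

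The acetyltransferases were flat: of 7 tested, 5 were positive and 2 negative, no value exceeded 0.08 in size and none had an unadjusted p under 0.05. Kat2a (GCN5), the most abundant, lay at 35.8, 35.8 and 37.7 RPKM in GFP-hi and 36.7, 34.1 and 36.4 RPKM in GFP-lo (log2 difference 0.028, 95% interval -0.096 to 0.15). Kat6b, among the weakest enzymes tested, lay at 1.58, 0.779 and 1.27 RPKM against 1.06, 1.197 and 1.27 RPKM.

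Among the classical deacetylases, the 4 class I enzymes all had positive differences with separate groups (median 0.17), and the 5 tested class II enzymes all had negative ones (median -0.08), although none of the 9 passed the test. Over all genes tested, 26.9% had separate groups and 55.5% a positive difference. This split by class was chosen after the values were seen, and the difference between the classes was not tested. Hdac1, a core enzyme of the Sin3, NuRD and CoREST complexes, was at 36.7, 40.4 and 37.3 RPKM in GFP-hi and 33.4, 33.8 and 34.0 RPKM in GFP-lo (log2 difference 0.17, 95% interval 0.045 to 0.30, limma adjusted p = 0.134). Its close paralog Hdac2 was at 26.6, 28.5 and 25.4 RPKM against 21.9, 24.1 and 23.1 RPKM (0.21, 95% interval 0.069 to 0.36, limma adjusted p = 0.111). In both genes GFP-hi replicate 2 was the highest library, and the lowest GFP-hi library was above the highest GFP-lo library.

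Hdac3, the enzyme of the NCoR complex, was at 18.0 ± 0.136 against 16.5 ± 0.919 RPKM (0.11, limma adjusted p = 0.313). Hdac8 was at 4.05 ± 0.282 against 3.5 ± 0.194 RPKM (0.16, limma adjusted p = 0.237). All 4 class I values stayed positive under median centring, quantile normalization, the trimmed mean of M values and removal of the length trend. Of class II, Hdac7, an enzyme abundant in T cells, led the class at 32.4, 30.4 and 31.5 RPKM in GFP-hi and 38.3, 30.4 and 30.4 RPKM in GFP-lo (log2 difference -0.061). Its GFP-lo replicate 1 stood apart, and the value was 0.047 without that library. Hdac4 turned to 0.019 with the length trend removed. Hdac9 stayed at or under 0.363 RPKM in every library.

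The sirtuins, deacetylases that use NAD, gave 6 positive values of 7 and a median of 0.025, with 4 of 7 positive without GFP-hi replicate 2. Sirt7, a nucleolar member and the most abundant, was at 24.6 ± 2.11 against 24.4 ± 0.383 RPKM, and Sirt1 at 3.39 ± 0.311 against 3.33 ± 0.595 RPKM. Neither passed the test (limma adjusted p = 0.951 and 0.922).

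**Figure D3:**
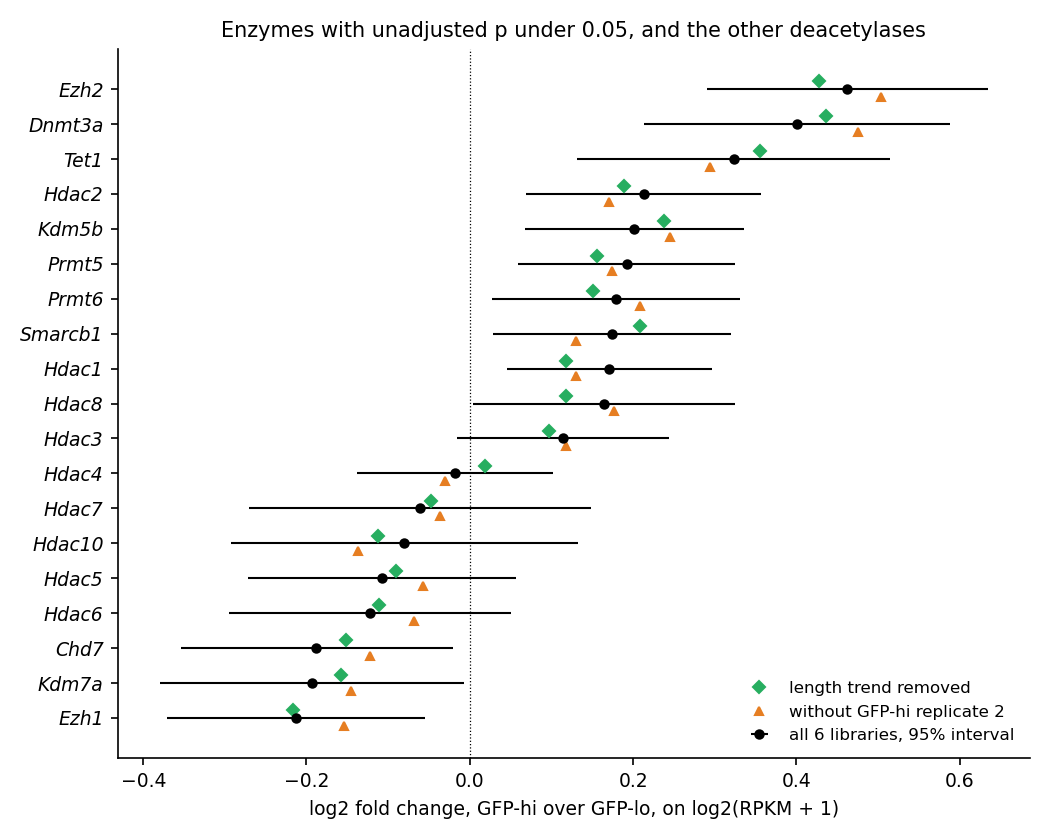
Log2 difference between GFP-hi and GFP-lo, with its 95% interval (black), for the 13 enzymes with an unadjusted p under 0.05 and the other deacetylases, beside the value with the length trend removed (green) and without GFP-hi replicate 2 (orange). Ezh2 (0.46) and Dnmt3a (0.40) lie highest, and Hdac1, Hdac2, Hdac3 and Hdac8 lie right of 0 in each of the 3 versions.

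Nucleosome remodellers likewise gave no gene that passed. Of 11 SWI/SNF subunits, 5 were positive and 6 negative. The ATPase Smarca4 (BRG1) was at 22.3 ± 0.973 against 23.5 ± 1.32 RPKM, its alternative Smarca2 at 17.2 ± 1.39 against 18.7 ± 0.707 RPKM, and Arid1a, the DNA-binding subunit, at 18.0 ± 0.683 against 18.7 ± 2.35 RPKM. Smarcd2, the most abundant of all 110 genes, lay at 47.6, 48.1 and 47.4 RPKM in GFP-hi and 45.0, 43.7 and 46.5 RPKM in GFP-lo, with separate groups but a difference of only 0.082 (limma adjusted p = 0.412). Smarcb1, a core subunit named after its values were seen, was at 7.16 ± 0.474 against 6.22 ± 0.148 RPKM (0.17, limma adjusted p = 0.178).

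The ISWI ATPase Smarca5 was at 28.2 ± 0.465 against 26.5 ± 1.04 RPKM (0.087, limma adjusted p = 0.408). Of the CHD family, 5 of 9 were positive and the median was 0.001. Chd3 and Chd4, the ATPases of the NuRD complex, were at 24.4 ± 3.06 against 23.5 ± 2.9 RPKM and at 19.5 ± 1.13 against 18.3 ± 2.64 RPKM. Chd7, named after its values were seen, was at 16.1, 14.0 and 16.3 RPKM in GFP-hi and 17.2, 17.2 and 18.8 RPKM in GFP-lo. All its GFP-hi libraries lay below its GFP-lo libraries (-0.19, limma adjusted p = 0.205). Of the other ARID proteins, Arid4a was at 28.3 ± 1.91 against 27.5 ± 1.07 RPKM and Arid5a, an RNA-binding protein, at 11.7 ± 0.657 against 12.6 ± 1.28 RPKM.

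Partner genes are the further subunits, readers and targeting factors of these complexes that the symbol rule does not match. Of the 83 on that list, 82 were tested, 50 had a positive and 32 a negative difference (40 and 42 with the trimmed mean of M values), and the median was 0.024. With 5 past the test (6.10% against 3.95% of all genes), 2 rose, Uhrf1 and Rbbp7, and 3 fell, among them Cbx7 and Phf1. Uhrf1, which brings DNMT1 to newly replicated DNA, was at 11.3, 7.49 and 11.5 RPKM in GFP-hi and 5.03, 4.66 and 4.43 RPKM in GFP-lo. Every GFP-hi library lay above the GFP-lo libraries, with GFP-hi replicate 2 nearest to them (log2 difference 0.94, SE 0.143, limma adjusted p = 0.0124). Leaving out GFP-lo replicate 2 or 3 ended the call (limma adjusted p = 0.0552 and 0.0502). The cell cycle markers given with Ezh2 were also higher in these libraries, and their part in the Uhrf1 result was not tested.

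Cbx7, a chromodomain subunit of Polycomb repressive complex 1 that binds methylated H3K27, fell in GFP-hi. It was at 8.41, 8.49 and 8.84 RPKM in GFP-hi and 13.3, 12.5 and 13.8 RPKM in GFP-lo (log2 difference -0.57, SE 0.058, limma adjusted p = 0.00252), and it passed in all 19 alternatives. Phf1, an accessory subunit of Polycomb repressive complex 2, was at 5.57 ± 0.189 against 7.49 ± 0.304 RPKM (-0.37, SE 0.058, limma adjusted p = 0.0139). In both genes the groups were separate, with GFP-hi lower.

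Rbbp7, a histone-binding subunit shared by Polycomb repressive complex 2 and the deacetylase complexes, was at 76.8 ± 1.54 against 64.4 ± 1.63 RPKM (0.25, SE 0.049, limma adjusted p = 0.0323). Leaving out any single library raised its limma adjusted p above 0.05, to 0.144 at most. Phf1 lost the call when GFP-hi replicate 1 or a GFP-lo library other than replicate 1 was left out (limma adjusted p = 0.0562 to 0.0581). The obligate partners of Ezh2 did not pass: Eed was at 13.8 ± 1.62 against 13.3 ± 0.677 RPKM and Suz12 at 15.2 ± 1.82 against 15.3 ± 0.984 RPKM.

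**Figure D4:**
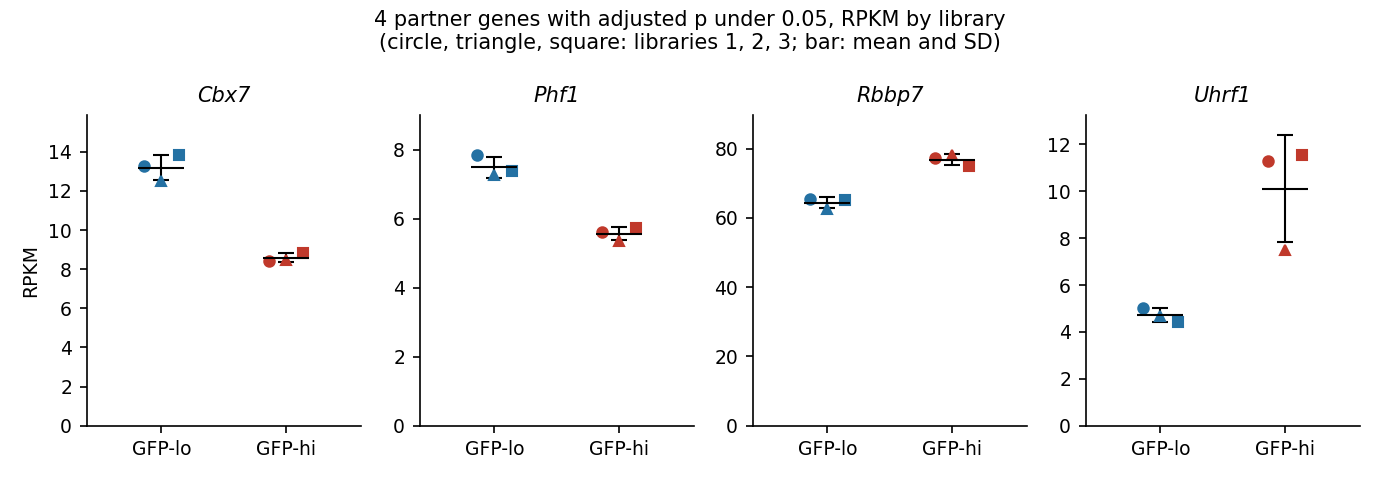
RPKM in each library of 4 partner genes that passed the test, with a linear axis from 0 and bars at the mean with the SD of 3 libraries. Uhrf1 and Rbbp7 are higher in GFP-hi, Cbx7 and Phf1 are lower, and no panel has overlapping groups.

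Many chromatin enzymes have long transcripts, which makes the set sensitive to any library in which long transcripts read low. The longest transcript had a median length of 5.17 kb for the 103 tested enzymes against 3.29 kb for all tested genes with a length. In each library, the deviation of log2(RPKM + 1) from the mean of the 6 libraries was set against length. Per doubling of length it changed by -0.076 in GFP-hi replicate 2 over all genes, against 0.001 to 0.028 in the other 5 libraries. Over the enzymes the slope was -0.081 in GFP-hi replicate 2 and 0.001 to 0.044 in the others.

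The effect was visible in single enzymes. Of the 25 enzymes with a transcript of at least 8 kb, GFP-hi replicate 2 was the lowest library in 17, among them Chd7 and Setd2. It was the highest in 0, and no other library was lowest in more than 3. Kmt2a, also of this length, was lowest in GFP-hi replicate 1 (10.134 RPKM, against 10.219 in GFP-hi replicate 2). The median deviation of GFP-hi replicate 2 in the 25 was -0.17. Of the 20 enzymes under 3 kb, it was the lowest in 3 and the highest in 7. The latter held Hdac1 and Prmt5 but not Ezh2. Across enzymes, Spearman's rho of log2 difference and length was -0.37, and -0.097 without GFP-hi replicate 2 (n = 103 enzymes, which share the same 6 libraries).

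Leaving that library out, or removing the length trend from every library, moved the direction of the long enzymes more than that of the rest. Of the 25 long enzymes, 5 had a positive difference with all libraries (median -0.039), 16 without GFP-hi replicate 2 (median 0.033) and 11 with the length trend removed (median -0.005). Over all 103, the positive values numbered 50, 62 and 54. Dnmt3a, itself a long transcript at 9.68 kb, was at 0.44 with the length trend removed (limma adjusted p = 0.00605) and 0.475 without GFP-hi replicate 2. Ezh2, at 2.79 kb, was at 0.43 with the trend removed (limma adjusted p = 0.0246). Both genes also passed the test without GFP-hi replicate 2. Without both libraries numbered 2, a choice made after seeing the data, they kept their direction but not their call (limma adjusted p = 0.0674 for Dnmt3a and 0.0696 for Ezh2).

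**Figure D5:**
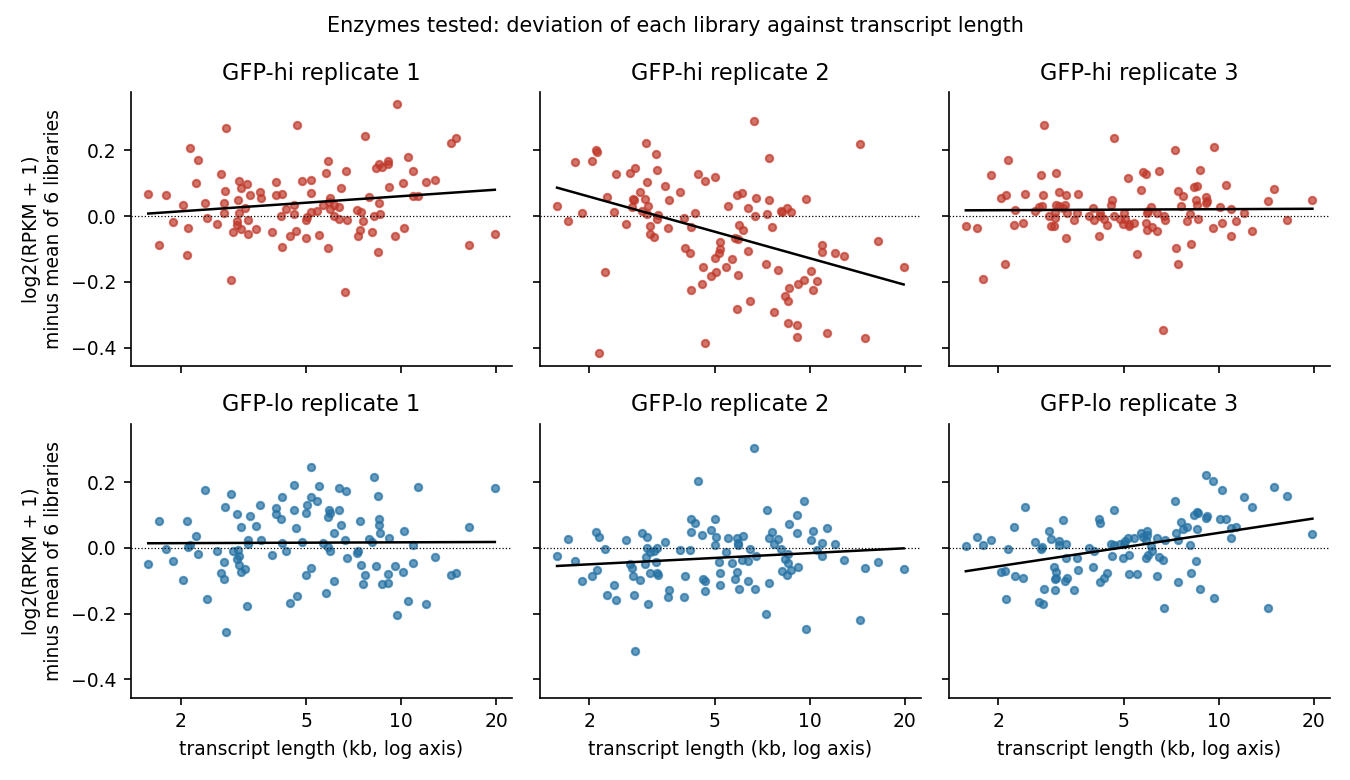
Deviation of log2(RPKM + 1) from the mean of the 6 libraries against transcript length (log axis, kb) for the 103 tested enzymes, 1 panel per library, with the fitted line. GFP-hi replicate 2 has the steep negative slope of -0.081 per doubling, and the other 5 libraries lie between 0.001 and 0.044.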

How the data were processed

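RNA was read with the SMART-seq v4 and Nextera XT kits, per the labels' protocols. STAR and mm10 are named in the submitters' processing notes, and the read counter is not given in the sources used here. The authors deposited RPKM values, 1 column for each of the 6 libraries, per the file headers. Log2 values were computed here from the deposited RPKM. Depth was found as the library size at which low values of genes with 1 transcript came closest to whole reads (88.0% to 92.5% within 0.1 of one, against 20% by chance). Such reads may include PCR copies.

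Genes with a mean of at least 1 RPKM were tested on log2(RPKM + 1) with limma 3.58.1 (R 4.3.3; lmFit, eBayes with trend, no covariate, two-sided) and Benjamini-Hochberg adjustment over all genes. The fit was tested on simulated data with independent errors, in which 200 genes were shifted by a log2 difference of 1. Of these 96.2% were recovered, and 4.55% of calls were false. The shift was larger than any enzyme difference reported here, so the simulation does not bear on differences of that size. Transcript lengths and gene positions came from GENCODE M21, and promoters from RefSeq, both on GRCm38. The enzymes and gene lists were chosen with earlier results of these data known. By rule, the text names enzymes and partner genes with an adjusted p under 0.05, the most abundant enzyme of each class and a list of well-known enzymes. Other genes, including Dnmt3b, Tet1, Hdac2, Hdac3, Hdac4, Hdac8, Eed and Suz12, were named after their values were seen. One partner gene is counted but not reported here. Alternatives changed the pseudocount (0.1, 0.5), the filter (none, or at least 5 RPKM), the scaling, the variance model, the length trend (loess, span 0.3) and the libraries left out. One of the 19, without both libraries numbered 2, was chosen after seeing the data.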

Additional observations from a re-analysis of the deposited data

How the results depend on the processing

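Over 19 alternatives, the 43 genes named by rule (38 enzymes and 5 partner genes) gave 812 values. Genes named after their values were seen are not in these counts. Of the 812, 697 kept both their direction and their side of the threshold, 32 lost a call and 4 gained one. The other 79 changed sign, in 19 genes whose reported difference was at most 0.061 in size. The enzymes called, 2 of 103 in the reported fit, numbered 1 of 80 with a filter of 5 RPKM. Of 103 enzymes, 1 was called with the trimmed mean of M values and 8 with array quality weights. Without both libraries numbered 2 the count was 0, and without any single library it was 0 to 2. Calls over all genes numbered 202 of 6412 with the filter. Of 9351 genes, 387 were called with the trimmed mean of M values, 1282 with the weights and 101 without both libraries numbered 2. Without any single library the calls over all genes numbered 133 to 315 (133 without GFP-lo replicate 2). The DNA methyltransferase median of 0.014 became 0.204 with the filter, which leaves fewer genes, 0.147 with weights, 0.143 with the length trend removed and GFP-hi replicate 2 left out, and -0.008 to 0.15 without single libraries. The H3K27 median became -0.213 with the filter, which leaves Ezh1 alone, and that of the other SET enzymes -0.058 with the length trend removed. Beyond those stated, the cause was not tested. No paired analysis was run because the labels give no replicate numbers, and those used here were assigned by record order.

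Sign changes of the genes named by rule were as follows, by setting. With quantile normalization Dnmt1 was at -0.026, Kat2a at -0.002, Kat6b at -0.012 and Sirt7 at -0.011. With the trimmed mean of M values Dnmt1 was at -0.021, Kat6b at -0.006 and Sirt7 at -0.016, and with a pseudocount of 0.1 Kat6b was at -0.007. With array quality weights Ehmt2 was at 0.035, Hdac7 at 0.013, Kdm5c at 0.110, Prmt1 at 0.129, Setd2 at 0.065, Setdb1 at 0.061, Sirt1 at -0.069, Sirt7 at -0.045, Suv39h1 at 0.007 and Tet2 at 0.025. With the length trend removed Kdm5c was at 0.004, Nsd3 at 0.009, Setd2 at 0.031, Setdb1 at 0.010, Sirt7 at -0.012 and Tet3 at 0.026. With GFP-hi replicate 2 left out as well, Arid4a was at -0.016, Ehmt2 at 0.034, Kdm5c at 0.089, Nsd3 at 0.028, Prmt1 at 0.154, Setd2 at 0.099, Setdb1 at 0.045, Sirt1 at -0.039, Sirt7 at -0.069, Tet2 at 0.026 and Tet3 at 0.008. Without both libraries numbered 2, Kdm5c was at 0.089, Kdm6a at 0.001, Nsd3 at 0.057, Prmt1 at 0.184, Setd2 at 0.095, Setdb1 at 0.026, Sirt7 at -0.053, Tet2 at 0.003 and Tet3 at 0.018. Leaving out single libraries gave ranges across 0 for Arid1a (-0.097 to 0.049), Arid4a (-0.009 to 0.084), Chd3 (-0.039 to 0.135), Dnmt1 (-0.075 to 0.150), Ehmt2 (-0.057 to 0.046), Hdac7 (-0.115 to 0.047), Kat2a (-0.004 to 0.047), Kat6b (-0.111 to 0.156), Kdm5c (-0.1 to 0.098), Kdm6a (-0.043 to 0.002), Nsd3 (-0.083 to 0.051), Prmt1 (-0.138 to 0.174), Setd2 (-0.080 to 0.114), Setdb1 (-0.053 to 0.052), Sirt1 (-0.051 to 0.134), Sirt7 (-0.056 to 0.048), Tet2 (-0.104 to 0.044) and Tet3 (-0.080 to 0.033).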
